A study of Mus musculus with 8 samples.

Results

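The WNT and R-spondin pathway was examined as 43 named genes out of the 54532 genes in a count table from mouse intestinal organoids. The genes were chosen by name, as ligands, receptors, core components and targets of the pathway, and all 43 were found in the table through their Ensembl identifiers. A filter on low counts left 28 of them among the 9971 genes tested, and the other 15 are described by their counts.

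The study compared 4 libraries labelled control with 4 labelled RANKL-treated, the latter being organoids exposed to the ligand of the receptor RANK. The methods describe organoids grown from isolated crypts in Matrigel, in medium with EGF, the BMP inhibitor NOGGIN and R-spondin1 conditioned medium and with no WNT named in that medium, so cultures of both conditions received R-spondin. The methods give a C57BL/6J background for all mouse lines. No age, dose or exposure time is named for these libraries, and the labels do not say whether replicates were separate cultures or animals, so p-values measure only the spread between these libraries. RNA was read near its 3′ end with a kit that primes on the poly(A) tail, so levels of different genes can be set side by side without division by length, and the values are raw counts per gene.

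WNT proteins are lipid-modified by PORCN, carried to the surface by WLS, and bind Frizzled receptors together with LRP5 or LRP6. Without that signal, a complex of AXIN, APC, GSK3 and casein kinase 1 marks beta-catenin for degradation, and with it beta-catenin reaches TCF/LEF factors on target genes. R-spondins, bound to LGR receptors, hold back RNF43 and ZNRF3, which otherwise clear Frizzled from the membrane, and this amplification maintains stem cells at the base of the intestinal crypt.

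Total counts per library were 583663 to 7807298 in the control group and 613135 to 1923354 in the RANKL group. Values are given as CPM, a count as a share of the TMM-scaled library total in parts of 1000000. A log2 fold change is RANKL over control with its standard error. Unless another fit or test is named, each adjusted p comes from edgeR's quasi-likelihood test and was called below 0.05. Its Benjamini-Hochberg adjustment runs over all 9971 tested genes. An adjusted p from another fit covers the genes of that fit, which were 23836 without the filter on low counts. Epithelial markers were abundant in every library, with a summed level of 5921 to 6906 CPM in the control and 6034 to 6464 CPM in the RANKL group over 8 genes. Cdh1 alone averaged 3472 and 3486 CPM. Of the 8, Cdx1 rose (log2 fold change 0.79), Krt18 and Krt19 fell (-0.70 and -0.30), and 5 did not pass the test. Of the 10 mesenchymal markers, Dcn and Foxl1 had 0 counts in all libraries and 1, Pdgfrb, passed the test (mean 3.87 CPM in controls and 19 CPM in RANKL libraries), and their summed level was 4.33 to 20.6 CPM and 22 to 27.4 CPM. T and B cell markers Cd3e, Cd4 and Cd79a were at 0 counts, as were the endothelial Cdh5 and Kdr. The others had counts, the most in Csf1r, with 93 over the control and 30 over the RANKL libraries. The T cell marker Cd8a had 4 and 1, and the endothelial Pecam1 had 20 and 4. The 7 immune and 4 endothelial markers summed to at most 8.62 and 3.44 CPM in any library. All 6 tested M cell markers rose and the mature marker Gp2 had 0 counts. M cell markers summed to 50.3 to 59 CPM in the control and 1834 to 2077 CPM in the RANKL group, where Spib alone averaged 1607 CPM. The part of M cells in the results below was not tested.

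Of the 28 tested members, 7 were higher with RANKL (Porcn, Lrp6, Ctnnb1, Tcf7l1, Tcf7l2, Ascl2 and Cd44) and 4 were lower (Fzd5, Gsk3a, Axin2 and Myc). These 11 calls are 39.3% of the tested members, beside 25.9% of all tested genes called in either direction, 13.6% called higher and 12.4% called lower. The median log2 fold change of the tested members was 0.13, against 0.00 over all tested genes. In 11 of the 28 tested members, Fzd2 and Apc among them but not Fzd5 and Lrp6, the CPM of the 2 groups did not overlap, while 24.6% of all tested genes had groups that did not overlap. For each of these 11, an exact two-sided permutation test of the CPM gave p = 0.0286, the smallest that 70 assignments of 4 libraries against 4 can give. Tcf7l1 and Cd44 rose several-fold. None of the 3 genes of the R-spondin module or the 3 of the Dishevelled layer passed the test. Layers this small could miss calls at the share of all genes, and layers were not compared by a test.

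**Figure D1:**
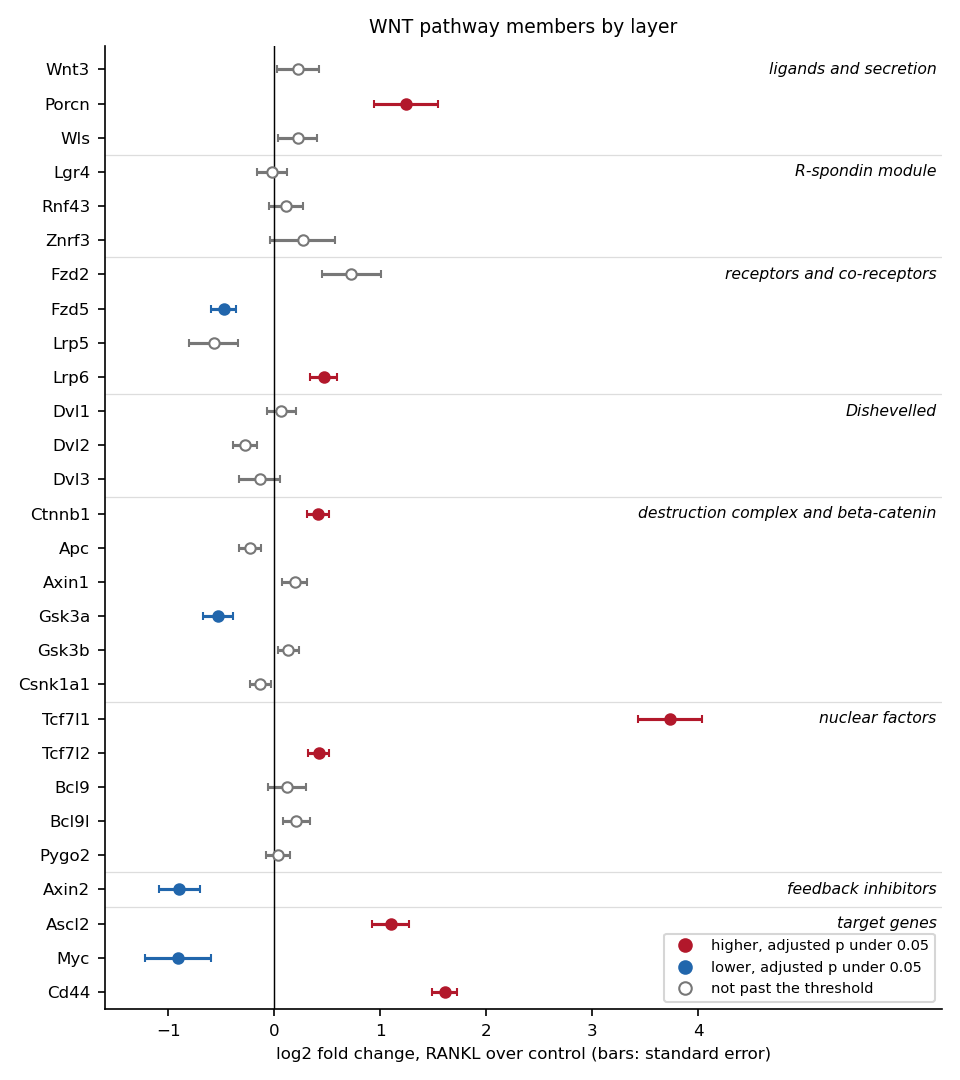
Log2 fold change of RANKL over control for the 28 tested members, ordered by layer (points; bars are standard errors; filled points passed an adjusted p of 0.05, red higher and blue lower). Tcf7l1 stands at 3.73, Cd44 at 1.61, and the 6 members of the R-spondin and Dishevelled layers lie between -0.27 and 0.27.

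**Figure D2:**
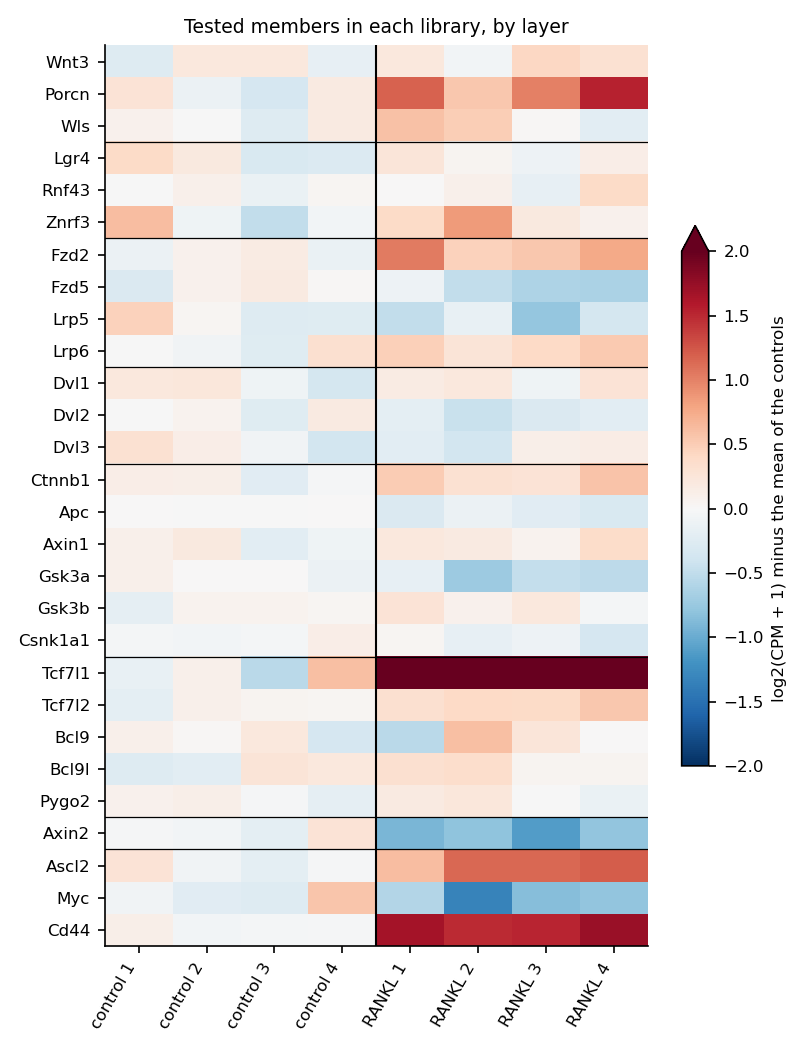
Each tested member (rows, by layer) in each library (columns), as log2(CPM + 1) minus the mean of the 4 control libraries, on a colour scale from -2 to 2. Tcf7l1 and Cd44 are high in all 4 RANKL libraries and Axin2 and Myc are low in all 4, whereas most rows between them show no split by condition.

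The promoter stretches below are shown for the called members with the largest changes that have a window outside annotated exons, Cd44 and Ascl2 among those that rose and Axin2 and Gsk3a among those that fell, and for the target gene Sp5, whose stretch holds the searched motif more than once. RefSeq windows (GRCm38.p6) from 250 bases before to 50 bases after the start were on hand for 29 of the 43 members, and the 250 bases before the start are printed, 5′ to 3′ on the gene's strand. Capitals mark the core of the TCF/LEF motif, CTTTGA, or its reverse complement TCAAAG.
Cd44 (chr2:102901666-102901915, minus strand): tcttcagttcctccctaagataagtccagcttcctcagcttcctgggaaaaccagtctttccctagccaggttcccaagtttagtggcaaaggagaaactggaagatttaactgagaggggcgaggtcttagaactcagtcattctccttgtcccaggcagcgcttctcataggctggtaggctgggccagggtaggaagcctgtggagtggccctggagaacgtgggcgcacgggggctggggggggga
Ascl2 (chr7:142969265-142969514, minus strand): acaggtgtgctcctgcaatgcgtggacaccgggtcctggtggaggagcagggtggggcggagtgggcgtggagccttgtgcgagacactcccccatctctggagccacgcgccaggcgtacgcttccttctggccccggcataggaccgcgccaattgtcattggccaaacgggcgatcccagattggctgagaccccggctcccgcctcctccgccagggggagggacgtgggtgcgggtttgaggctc
Axin2 (chr11:108920099-108920348, plus strand): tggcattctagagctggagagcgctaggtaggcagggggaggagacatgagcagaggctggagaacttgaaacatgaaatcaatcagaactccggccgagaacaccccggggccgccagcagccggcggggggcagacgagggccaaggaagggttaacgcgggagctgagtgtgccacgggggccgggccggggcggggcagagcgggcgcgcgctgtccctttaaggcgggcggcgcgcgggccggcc
Gsk3a (chr7:25237852-25238101, minus strand): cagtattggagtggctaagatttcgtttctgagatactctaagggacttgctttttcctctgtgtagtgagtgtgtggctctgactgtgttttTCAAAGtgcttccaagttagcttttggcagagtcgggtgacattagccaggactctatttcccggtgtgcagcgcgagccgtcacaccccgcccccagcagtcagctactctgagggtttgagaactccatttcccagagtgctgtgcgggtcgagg
Sp5 (chr2:70474673-70474922, plus strand): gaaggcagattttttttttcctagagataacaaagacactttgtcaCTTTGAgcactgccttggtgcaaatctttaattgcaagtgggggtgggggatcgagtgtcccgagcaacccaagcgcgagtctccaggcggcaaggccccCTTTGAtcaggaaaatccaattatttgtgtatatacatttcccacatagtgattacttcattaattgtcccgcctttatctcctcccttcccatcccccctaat

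The TCF/LEF core, searched on both strands, was present in 7 of the 40 windows of the 29 members, which is 17.5%, beside 16% of all 32851 windows in the table. The 7 windows belong to Fzd1, Gsk3a, Gsk3b, Lef1, Sp5, Tnfrsf19 and Wnt11. Among the 8 called members with a window it was found in Gsk3a, where it begins 157 bases before the start. Sp5 held it 2 times, beginning 204 and 104 bases before the start. The NF-κB consensus, searched on both strands, was in none of the 29 members' windows and in 4.51% of all windows, so the 2 motifs did not overlap in these members. These letters were looked for only in these short windows, and a match describes the letters alone.

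In the layer of ligands and secretion, the gene for the enzyme that acylates WNT proteins rose and the tested ligand did not pass the test. Porcn (ENSMUSG00000031169, chrX:8193848-8206525) was at 5.60, 4.03, 3.29 and 5.16 CPM in control replicates 1 to 4 and at 11.3, 6.88, 9.91 and 14.8 CPM in RANKL replicates 1 to 4. All RANKL libraries exceeded all controls, a 2.37-fold rise with a log2 fold change of 1.24 ± 0.30 (adjusted p = 0.00247). Wls, the sorting receptor of WNT proteins, had means of 28.9 ± 3.76 and 34.5 ± 9.01 CPM (SD, n = 4 each), with overlapping groups (log2 fold change 0.22 ± 0.18, adjusted p = 0.404).

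Wnt3, the ligand made by Paneth cells in the crypt, ran from 16 to 22.6 CPM in controls and 18.6 to 26.1 CPM in RANKL libraries. Its log2 fold change was 0.22 ± 0.20 (adjusted p = 0.438), and the 2 ranges overlapped. Of the 8 Paneth cell markers, 1 rose, 1 fell and 6 did not pass the test. Wnt6 had 5 counts over the control and 0 over the RANKL libraries, and Wnt11 had 0 and 1, both too few for a fold.

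Ligands outside the 43 genes were scarce too: of 16 further WNT genes, 7 had 0 counts in all libraries and 1 was tested, without passing. Among the untested, Wnt10b had 3 counts over the control and 26 over the RANKL libraries, with 3, 6, 7 and 10 in RANKL replicates 1 to 4, and was singled out after its values were seen. Scaled for depth, that is a RANKL to control ratio of 24 (exact 95% interval 7.36 to 124, counting error only). In a fit without the filter on low counts its log2 fold change was 4.17 ± 0.77 (edgeR, adjusted p = 2.12e-06). Wnt10a also passed in that fit, on 1 and 8 counts (3.612 ± 1.195, edgeR, adjusted p = 0.0268), and no other untested ligand did.

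The R-spondin module showed no called change. Lgr4, an R-spondin receptor found along much of the intestinal epithelium, was at 79 ± 19.4 CPM in controls and 82.3 ± 8.36 CPM in RANKL libraries (log2 fold change -0.02 ± 0.14, adjusted p = 0.942). Rnf43 and Znrf3, the ubiquitin ligases that R-spondin restrains, had log2 fold changes of 0.11 ± 0.16 and 0.27 ± 0.31 (adjusted p = 0.65 and 0.571). In each of these genes the libraries of the 2 conditions overlapped.

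Lgr5, the R-spondin receptor that marks crypt base stem cells and is not among the 43 genes, stood at 46.6, 49.4, 41.6 and 43 CPM in the control and 12.9, 10.3, 6.78 and 11 CPM in the RANKL libraries. Every RANKL library was far below every control, with a log2 fold change of -2.23 ± 0.20 (adjusted p = 3.00e-10). Within each library, the log2 ratio of Lgr5 to Lgr4 counts was -0.78 ± 0.27 in control and -2.99 ± 0.26 in RANKL libraries (SD, n = 4 each), a shift of -2.21 (exact permutation test, two-sided, p = 0.0286; 0.0458 adjusted over 8 pairs). Lgr4 did not pass, so this ratio restates the fall of Lgr5 and its p-value adds no further evidence. In bulk libraries, fewer cells of a type and less RNA per cell cannot be told apart. The 4 R-spondin genes had 4 counts in all over the 8 libraries, with Rspo2 and Rspo3 at 0.

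Among receptors and co-receptors, Fzd5 fell, Lrp6 rose, and 6 of the 10 members were below the filter. Fzd5, the most abundant Frizzled receptor in these libraries, was at 273, 353, 376 and 337 CPM in the control and 310.0, 236, 217 and 215 CPM in the RANKL libraries. RANKL replicate 1 lay within the control range and the other RANKL libraries below it, and the log2 fold change was -0.48 ± 0.12 (adjusted p = 0.00253).

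Lrp6, a co-receptor that WNT brings together with Frizzled, was at 72.6, 69.2, 61.1 and 91.1 CPM in controls and 102, 86.7, 96.5 and 105 CPM in RANKL libraries. Control replicate 4 exceeded the lowest RANKL library, and the groups otherwise did not cross (log2 fold change 0.46 ± 0.12, adjusted p = 0.00576). Its adjusted p was 0.108 once the log2 of the library total was added to the fit as a covariate.

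Its relative Lrp5 was at 15.2 to 25.8 CPM in controls and 10.4 to 16.5 CPM in RANKL libraries and did not pass (log2 fold change -0.57 ± 0.23, adjusted p = 0.0665). Over its alternatives the adjusted p ran from 0.0147 without control replicate 3, where it passed at -0.72, to 0.641 with the depth covariate, at -0.26, and without control replicate 1 it was 0.355, at -0.33. The log2 ratio of Lrp5 to Lrp6 counts was -1.96 ± 0.42 in control and -2.83 ± 0.34 in RANKL libraries (SD, n = 4 each; exact permutation p = 0.0571, 0.0761 adjusted), so a shift in the balance of the co-receptors was not shown.

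Fzd2 was at 5.16 to 6.59 CPM in all controls and 8.26 to 12.9 CPM in all RANKL libraries, without overlap, and its adjusted p was 0.0534 (log2 fold change 0.73 ± 0.28). Over its 15 alternatives the adjusted p ran from 0.036 to 0.32. It passed with scaling by library totals alone (0.0468) and in limma-voom (0.036) and in none of the others, DESeq2 (0.148) and each library left out (0.0507 to 0.161) among them. The untested receptors were sparse. Fzd3 had 56 and 26 counts over the control and RANKL groups, Fzd4 had 64 and 18, and Fzd7 had 87 and 23, with RANKL to control ratios after scaling for depth of 1.29 (exact 95% interval 0.776 to 2.08), 0.780 (0.435 to 1.33) and 0.733 (0.442 to 1.17). Fzd6 had 17 and 9 counts, Fzd8 24 and 8, and Fzd1 a single count in a control library. The interval of each of these Frizzled genes with counts in both groups holds equal levels, so no difference was detectable at this depth, and intervals cover counting error only.

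The Dishevelled layer, which relays the signal from Frizzled to the destruction complex, held no called gene. Dvl1, Dvl2 and Dvl3 had log2 fold changes of 0.07 ± 0.14, -0.27 ± 0.12 and -0.14 ± 0.19 (adjusted p = 0.765, 0.0782 and 0.639), and the libraries of the 2 conditions overlapped in each. Dvl2 was the most abundant, at 136 ± 16.3 CPM in controls and 111 ± 8.46 CPM in RANKL libraries, and of its 16 alternatives it passed in 1, without control replicate 3 (-0.35, adjusted p = 0.0152), with adjusted p up to 0.234 in the others.

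In the layer of the destruction complex and beta-catenin, Ctnnb1 rose and Gsk3a fell, both by less than 2-fold, and the scaffold genes did not pass. Ctnnb1, which encodes beta-catenin, was at 661, 651, 512 and 588 CPM in controls and 854, 745, 724 and 896 CPM in RANKL libraries. No RANKL library was as low as any control, a 1.33-fold rise (log2 fold change 0.41 ± 0.10, adjusted p = 0.0027). These are transcript levels, and beta-catenin is controlled largely through its protein.

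Gsk3a, one of the 2 genes for glycogen synthase kinase 3, was at 64, 60.1, 59.8 and 55 CPM in controls and 53.3, 35.8, 42.8 and 41.2 CPM in RANKL libraries. All RANKL libraries were below all controls, with RANKL replicate 1 the closest to them (log2 fold change -0.53 ± 0.14, adjusted p = 0.00481). Gsk3b, the other gene, had means of 293 ± 23.4 and 322 ± 30.2 CPM (log2 fold change 0.13 ± 0.10, adjusted p = 0.362). The log2 ratio of Gsk3a to Gsk3b counts moved from -2.29 ± 0.19 in control to -2.89 ± 0.18 in RANKL libraries (SD, n = 4 each; exact permutation p = 0.0286, 0.0458 adjusted), with no overlap.

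Apc, the tumour suppressor that scaffolds the complex, was at 123, 122, 122 and 124 CPM in the controls, which nearly coincided, and at 100.1, 113, 104 and 98.9 CPM in the RANKL libraries. The groups did not overlap, yet the fit across all genes did not call it (log2 fold change -0.23 ± 0.11, adjusted p = 0.119). Axin1 and Csnk1a1, a second scaffold and casein kinase 1 alpha, had log2 fold changes of 0.19 ± 0.12 and -0.13 ± 0.10 (adjusted p = 0.259 and 0.345).

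The nuclear layer held the largest change among the members. Tcf7l1 (ENSMUSG00000055799, chr6:72626378-72789254, GRCm38), which encodes TCF3, a TCF factor known mainly as a repressor of WNT targets, was at 1.66, 2.15, 1.01 and 3.44 CPM in the control and 14.5, 25.5, 23.5 and 24.7 CPM in the RANKL libraries. Every RANKL library was above every control, and the lowest, replicate 1, was still several-fold above the highest control. The rise was 13.3-fold (log2 fold change 3.73 ± 0.30, adjusted p = 3.39e-11), from 27 counts over the control libraries and 136 over the RANKL libraries. Its control levels alone would not have passed the filter on low counts, so Tcf7l1 was tested only through its RANKL libraries. Its call also held in the fit without that filter.

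Tcf7l2, which encodes TCF4 and is the main TCF factor of intestinal crypts, was at 208, 256, 247 and 246 CPM in controls and 297, 313, 310.3 and 348 CPM in RANKL libraries. It rose 1.34-fold without overlap (log2 fold change 0.42 ± 0.10, adjusted p = 0.00203). Tcf7l2 was the more abundant of these 2 genes in each library, on the CPM scale.

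Tcf7, which encodes TCF1, was below the filter, with 11, 4, 9 and 1 counts in the 4 controls, in replicate order, and 0, 0, 1 and 0 in the 4 RANKL libraries. Equal levels would put 6.89 of its 26 counts in the RANKL group, and the RANKL to control ratio was 0.111 (exact 95% interval 0.003 to 0.677, counting error only). In the fit without the filter it did not pass (log2 fold change -2.94 ± 1.12, edgeR, adjusted p = 0.0713). Lef1 had 3 counts in control and 0 in RANKL libraries.

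The co-activators that link beta-catenin to transcription, Bcl9, Bcl9l and Pygo2, had log2 fold changes of 0.12 ± 0.18, 0.21 ± 0.13 and 0.03 ± 0.12 (adjusted p = 0.667, 0.249 and 0.87) and overlapping groups. Of its 16 alternatives, Bcl9l passed in 1, without control replicate 3 (0.34, adjusted p = 0.0307), with adjusted p up to 0.877 in the others. The log2 ratio of Bcl9 to Bcl9l counts was -2.04 ± 0.40 and -2.15 ± 0.51 in control and RANKL libraries (SD, n = 4 each; exact permutation p = 0.657).

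Of 15 further nuclear regulators, 13 were tested, 1 rose and 2 fell, and all 3 belong to the Groucho family of co-repressors that bind TCF factors. Tle3 rose, with 60.3 to 66.8 CPM in the control and 147 to 200.2 CPM in the RANKL libraries (log2 fold change 1.45 ± 0.12, adjusted p = 3.60e-11). Tle1 fell from a range of 46.4 to 60.9 CPM to one of 27.1 to 43.9 CPM (-0.68 ± 0.16, adjusted p = 0.00133), and Tle4 from a range of 65.3 to 81 CPM to one of 48.9 to 63 CPM (-0.47 ± 0.13, adjusted p = 0.00669). None of the 3 had overlapping groups. Of the same family in that list, Tle5 did not pass (-0.12 ± 0.11, adjusted p = 0.478). Tle2 was below the filter, with 75 counts over the control and 16 over the RANKL libraries.

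**Figure D3:**
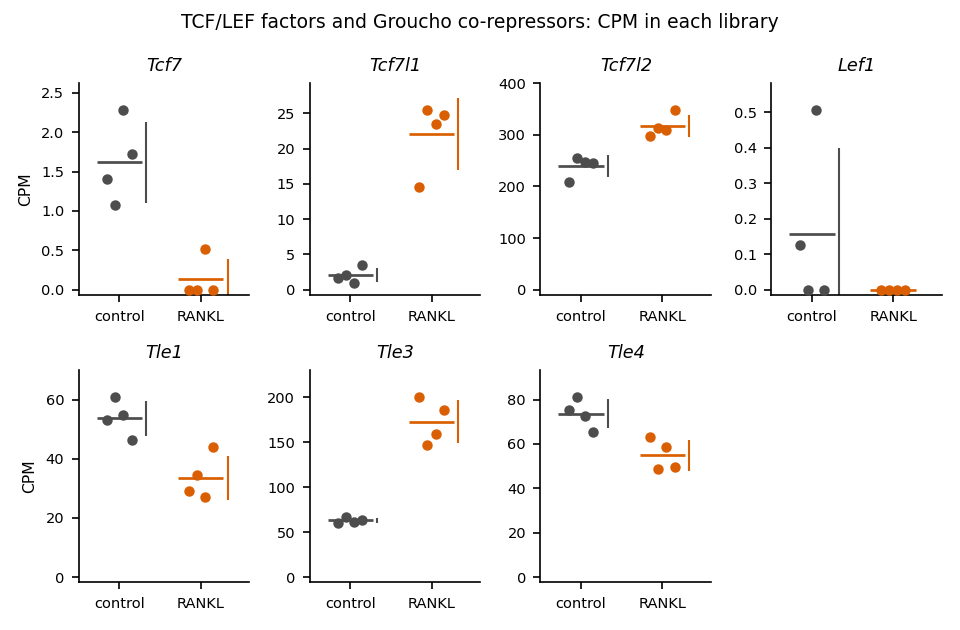
CPM in each library (points, one per library) for the 4 TCF/LEF genes and the 3 called Groucho family genes, control in grey and RANKL in orange, with the group mean (horizontal line) and SD (vertical line, n = 4 each); each panel has its own scale. Tcf7l1, Tcf7l2 and Tle3 are higher in every RANKL library, Tle1 and Tle4 are lower in every one, and Tcf7 and Lef1 rest on 26 and 3 counts.

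Among the feedback inhibitors, Axin2 fell and the other members were barely detected. Axin2 (ENSMUSG00000000142, chr11:108920349-108950783), a target of beta-catenin that in turn scaffolds its degradation, was at 27.9, 27.1, 24.6 and 34.4 CPM in the control and 14.5, 15.8, 12.5 and 15.9 CPM in the RANKL libraries. All RANKL libraries were below all controls, a 1.86-fold fall (log2 fold change -0.90 ± 0.19, adjusted p = 7.32e-04). Against Axin1 in the same library, its log2 count ratio moved from -1.72 ± 0.28 in control to -2.85 ± 0.10 in RANKL libraries (SD, n = 4 each; exact permutation p = 0.0286, 0.0458 adjusted). Axin1 did not pass, so this ratio mostly restates the fall of Axin2.

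Nkd1, which inhibits Dishevelled, had 5 counts in control and 2 in RANKL libraries. Notum, an enzyme that strips the lipid from WNT proteins, and Wif1, which binds WNT proteins outside the cell, had 0 counts in every library. Since 0 counts are compatible with as many as 3, the limit for such a gene ran from 0.382 CPM at the greatest depth to 5.16 CPM at the smallest. Secreted inhibitors and membrane antagonists outside the 43 genes were as scarce, with 1 of 14 tested, not past the threshold, and 4 at 0 counts.

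The target genes split: Cd44 and Ascl2 rose, and Myc fell. Cd44 (ENSMUSG00000005087, chr2:102811141-102901665), a surface receptor of hyaluronan and a WNT target in crypts, was at 43.7, 38.6, 39 and 39.6 CPM in the control and 129, 115, 117 and 135 CPM in the RANKL libraries. The groups lay far apart with little spread in either, a 3.04-fold rise (log2 fold change 1.61 ± 0.12, adjusted p = 5.16e-12).

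Ascl2 (ENSMUSG00000009248, chr7:142966829-142969264), a transcription factor of crypt stem cells, was at 21.4, 16.6, 15.2 and 17.2 CPM in controls and 27.4, 39.9, 40.2 and 41.7 CPM in RANKL libraries. RANKL replicate 1 was lower than the other RANKL libraries and above all controls, and the rise was 2.14-fold (log2 fold change 1.10 ± 0.18, adjusted p = 1.66e-05). Of the 6 crypt base stem cell markers, a list that also holds Axin2 and Lgr5, Ascl2 was the one that rose, while Lgr5, Smoc2 and Axin2 fell and Olfm4 and Slc12a2 did not pass.

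Myc, a growth regulator and WNT target, was at 9.68, 8.59, 8.36 and 15.5 CPM in controls and 6.46, 3.44, 5.22 and 5.49 CPM in RANKL libraries. The groups did not overlap, and control replicate 4 was the highest (log2 fold change -0.91 ± 0.31, adjusted p = 0.0292). The call was lost in DESeq2 (adjusted p = 0.0849) and, in edgeR, without control replicate 1 (0.0592), RANKL replicate 2 (0.117), RANKL replicate 3 (0.0681) or RANKL replicate 4 (0.0643), with log2 fold changes from -0.98 to -0.77. Of the 5 cycling cell markers, Mki67 fell (log2 fold change -0.37 ± 0.12, adjusted p = 0.0229) and 4 did not pass.

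Tnfrsf19, which encodes the receptor TROY and is a WNT target in stem cells, was below the filter, with 7, 5, 1 and 0 counts in the 4 controls, in replicate order, and 1, 8, 5 and 17 in the 4 RANKL libraries. After scaling for depth the RANKL to control ratio was 6.61 (exact 95% interval 3.36 to 13.8, counting error only). In the fit without the filter it passed (log2 fold change 2.60 ± 0.56, edgeR, adjusted p = 8.92e-05). Sp5, a transcription factor and WNT target, had 49 and 17 counts, at a ratio of 0.962 (0.519 to 1.70), with no difference detectable at this depth.

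**Figure D4:**
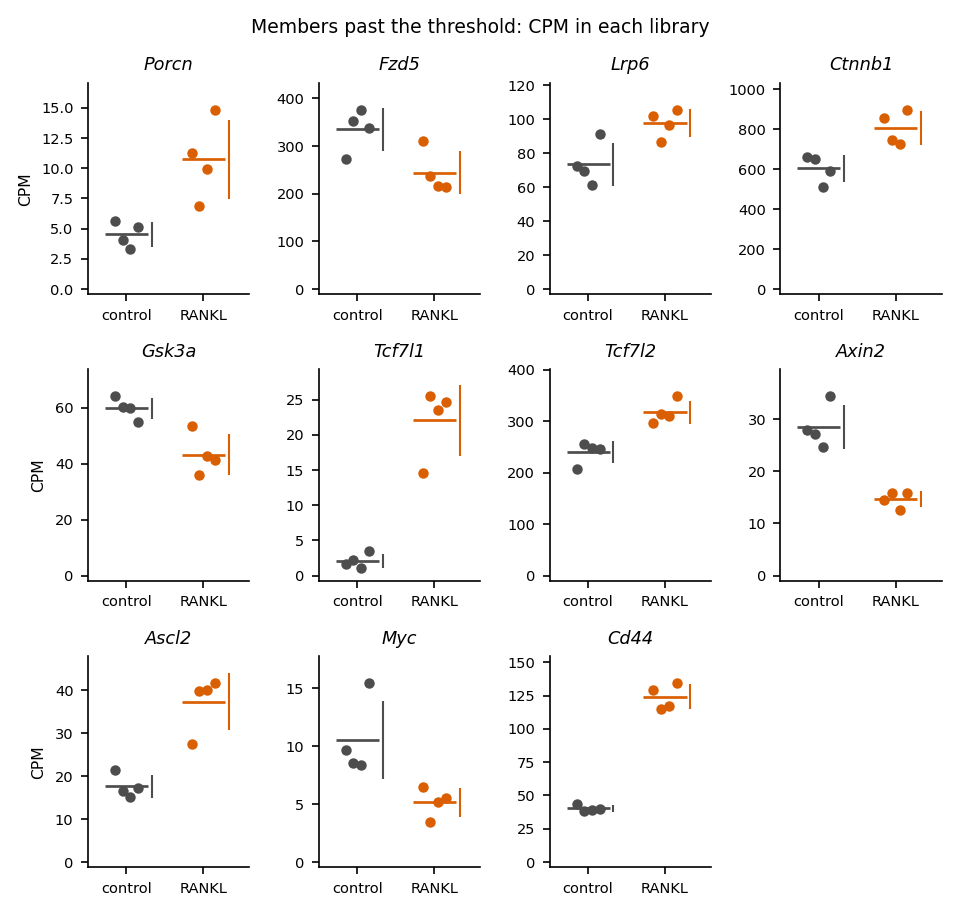
CPM in each library (points) for the 11 members past the threshold, control in grey and RANKL in orange, with the group mean (horizontal line) and SD (vertical line, n = 4 each); each panel has its own scale from 0. The groups are apart in 9 panels, and in Fzd5 and Lrp6 a library of one group lies within the range of the other.

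The targets were also compared with each other inside each library, which needs no scaling between libraries. The log2 ratio of Ascl2 to Axin2 counts moved from -0.68 ± 0.24 in control to 1.31 ± 0.32 in RANKL libraries, and that of Cd44 to Axin2 from 0.50 ± 0.22 to 3.04 ± 0.15 (SD, n = 4 each). Neither pair's groups overlapped (exact permutation p = 0.0286, 0.0458 adjusted, for both). Ascl2 and Cd44 rose and Axin2 fell, each without overlap, so these targets did not change in proportion. The ratios therefore had to separate, and their p-values add no further evidence. Both pairs entered the adjustment over 8 pairs. The 0.0458 of Lgr5 to Lgr4, Axin2 to Axin1 and Gsk3a to Gsk3b rests partly on them and would exceed 0.05 without them. The log2 ratio of Rnf43 to Znrf3 counts was 2.26 ± 0.49 in control and 1.91 ± 0.46 in RANKL libraries (exact permutation p = 0.371). Tcf7 to Tcf7l2 was left out because Tcf7 had 1 count in the RANKL group.

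**Figure D5:**
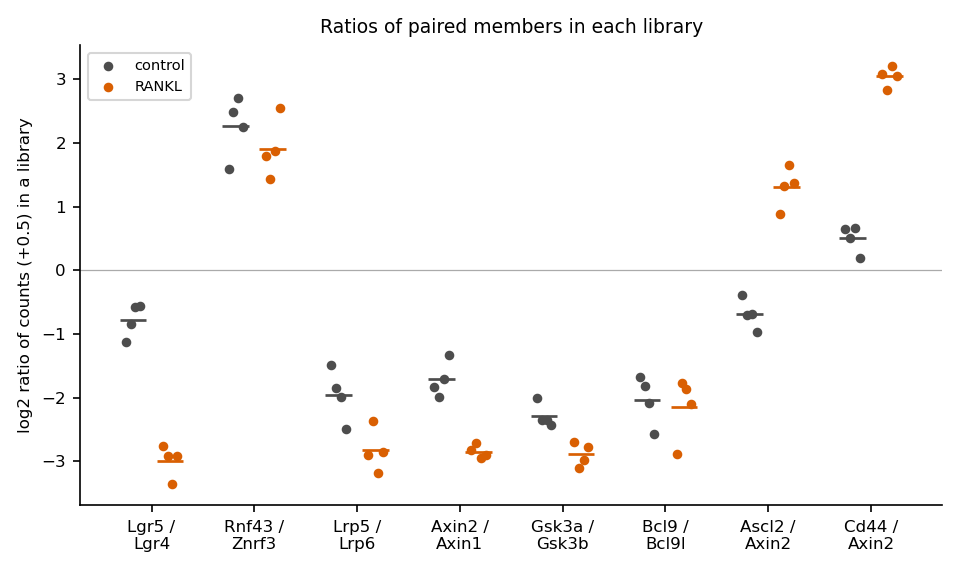
Log2 ratio of the counts of 2 genes (each plus 0.5) in each library (points), for 8 pairs, control in grey and RANKL in orange, with group means as lines. The Lgr5/Lgr4, Axin2/Axin1, Gsk3a/Gsk3b, Ascl2/Axin2 and Cd44/Axin2 groups do not overlap, with shifts from -2.21 to 2.54, and the other 3 pairs overlap.

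Genes of the pathway outside the 43 were called in both directions, at a rate close to that of all tested genes. Of 99 genes in 7 further lists, 54 were tested, 7 rose and 8 fell, which is 27.8% called beside 25.9% of all tested genes. Among 14 other crypt WNT target genes, 2 rose and 5 fell, and 7 did not pass. Sox4, a transcription factor of progenitor cells, rose from a range of 397 to 433 CPM to one of 749.7 to 873 CPM (log2 fold change 1.00 ± 0.09, adjusted p = 7.43e-10), and Ccnd2, a cyclin of the G1 phase, fell from a range of 3745 to 4435 CPM to one of 2168 to 2498 CPM (-0.78 ± 0.10, adjusted p = 1.53e-07).

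Of 14 other receptors and planar polarity genes, 7 were tested, 2 rose and 1 fell. Celsr1, a cadherin of planar polarity, was at 0 to 3.22 CPM in controls and 12.9 to 18.6 CPM in RANKL libraries (log2 fold change 3.11 ± 0.34, adjusted p = 2.00e-08), and Vangl2, its partner in that pathway, rose by 0.49 ± 0.16 on the log2 scale (adjusted p = 0.0256). Ror2, a receptor of WNT5A, fell, with a log2 fold change of -1.06 ± 0.20 (adjusted p = 1.46e-04). Of 21 cytoplasmic regulators, 18 were tested and 2 rose: Macf1, a cytoskeletal linker that binds Axin, by 0.67 ± 0.11, and Fbxw11, a subunit of the ubiquitin ligase for beta-catenin, by 0.63 ± 0.14 on the log2 scale (adjusted p = 1.95e-05 and 7.56e-04).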

How the data were processed

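The 8 libraries were grouped by the labels' treatment and replicate number. Per the methods, the authors used BBDuk for trimming, bowtie2 to remove abundant sequences, STAR for alignment to GRCm38 and strand-specific featureCounts on Ensembl release 94, and deposited raw counts per gene. No rows lacked a gene identifier, 54495 of 54532 matched GENCODE release M21, which gave symbols and coordinates, and Tle5 is listed there as Aes. Ctnnb1 and Dvl2 share exon bases on the same strand with a microRNA gene each. Read copies from PCR cannot be told from molecules.

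From the counts, edgeR 4.0.16 (R 4.3.3) was run with TMM factors, filterByExpr and the quasi-likelihood test across all 9971 genes kept, with Benjamini-Hochberg adjustment and a threshold of 0.05. Some genes, Tcf7l1, Porcn, Fzd2 and Celsr1 among them, passed the filter through their RANKL libraries, where their levels were higher. A standard error is the size of a log2 fold change over the square root of F. Ratios used a pseudocount of 0.5 counts and an exact two-sided permutation test (scipy 1.17.1), for pairs with at least 10 counts per gene and group. Scripts were tested on simulated data. One immune marker is not reported here. The members, gene lists and tests were chosen with earlier results of these data known. All members are accounted for; values per library are given for those past the threshold or whose call changed in DESeq2, and other genes are up to 3 per list with the largest called change at a mean of at least 5 CPM. Fzd2, Apc, Wnt10a, Wnt10b, Tcf7 and Tnfrsf19 are described further after their values were seen, and Tle2 and Tle5 are given beside their called relatives. Alternatives were other scalings, DESeq2 1.42.0, limma-voom (limma 3.58.1), other filters, the replicate number as a block, a depth covariate and each library left out.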

Additional observations from a re-analysis of the deposited data

Results flagged for a closer look

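In a group of 4, a library was picked out where its gap to the nearest other library exceeded Dixon's 95% critical share of the group's range. Chance alone does this in about 1 of 20 groups, and 7 of 78 groups were picked out, against 3.9 by that rate.

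Among the members, control replicate 1 was low in Gsk3b (258 CPM, next 299 CPM), control replicate 4 was high in Csnk1a1 (456 CPM, next 407 CPM), and RANKL replicate 1 was low in Ascl2 (27.4 CPM, next 39.9 CPM). Of the other named genes, Ror2 was low in control replicate 4 (25.8 CPM, next 28.1 CPM) and high in RANKL replicate 1 (21 CPM, next 13 CPM), Fbxw11 was low in RANKL replicate 4 (65.9 CPM, next 86.7 CPM), and Sox4 was low in RANKL replicate 4 (749.7 CPM, next 857 CPM). Control replicate 4 and RANKL replicate 1 had the smallest total counts of their groups. The calls of Ascl2, Gsk3b and Csnk1a1 did not change when these libraries were left out.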

How the results depend on the processing

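The 7 members called higher and 4 called lower were 8 and 4 with library totals alone, in limma-voom or with no filter on low counts, 7 and 4 with DESeq2 size factors, 7 and 3 in the DESeq2 Wald test, and 6 and 4 with the depth covariate. Over all tested genes, 2053 were called in the DESeq2 Wald test and 1827 with the depth covariate, beside 2587 in the main fit. With at least 10 counts in every library, 21 members were tested and 5 were higher and 2 lower, while 1926 of 6593 genes were called. At an adjusted p of 0.01, 1636 of all tested genes passed, with 7 members higher and 3 lower, and with a fold of at least 2 also required, 577 genes passed, with 4 members higher and 0 lower. Leaving out each library in turn gave 1853 to 2601 called genes, 7 to 8 members higher and 3 to 6 lower.

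With the fold of at least 2 required, the called members were Porcn, Tcf7l1, Ascl2 and Cd44. With the threshold kept at an adjusted p of 0.05, 9 of the 11 calls held in every other fit in which the gene was tested, and Myc and Lrp6 lost theirs as described. Of the 9, Porcn and Gsk3a held narrowly. Their adjusted p reached 0.0488 for Porcn, without RANKL replicate 4 in edgeR, and 0.0491 for Gsk3a over its alternatives. Direction turned only in members that were not called. Lgr4 was at 0.003 with library totals alone, 0.002 in DESeq2, 0.057 with the block and 0.153 with the depth covariate, Dvl3 at 0.176 with that covariate and Pygo2 at -0.007 without the filter. Leaving out each library gave -0.172 to 0.142 for Lgr4, -0.023 to 0.215 for Rnf43 (negative without RANKL replicate 4), -0.011 to 0.155 for Dvl1 (negative without control replicate 3), -0.058 to 0.219 for Bcl9 and -0.029 to 0.1 for Pygo2 (both negative without RANKL replicate 2). The cause was not tested.

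The replicate number as a block gave 2610 called genes, with 7 members higher and 4 lower. Same-numbered libraries correlated at -0.005, -0.031, 0.098 and 0.041 in their deviations from the group means. Such values cannot show whether same-numbered libraries shared a culture or animal. The main fit used no block because the methods name none. The ratio shifts without each library ran from -2.33 to -2.09 for Lgr5 to Lgr4, -0.57 to -0.19 for Rnf43 to Znrf3, -1.05 to -0.71 for Lrp5 to Lrp6, -1.23 to -1.01 for Axin2 to Axin1, -0.67 to -0.52 for Gsk3a to Gsk3b, -0.29 to 0.13 for Bcl9 to Bcl9l, which turned direction without control replicate 1 (0.01) or RANKL replicate 1, 1.87 to 2.13 for Ascl2 to Axin2, and 2.44 to 2.61 for Cd44 to Axin2. With 3 libraries against 4 the smallest exact p is 0.0571. Depth limits the 15 untested members, since 1 count is 1.72 CPM in the shallowest control library.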
